A study of Homo sapiens with 8 samples.

Results

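The genes described here are 54 genes of chromosome 17q21, all lying between 42.8 and 48.9 Mb of chromosome 17 (GRCh38), out of 58870 genes in the deposited table. They were selected on the contrast reported below, as a stretch of neighbouring genes with a tendency to be higher in cells labelled ELAPOR1 overexpression. Their fold changes in this contrast are therefore a description of the choice, with no test of the list, and support nothing by themselves. RNA was sequenced from 8 libraries of Panc 10.05, an established cell line from a human pancreatic ductal adenocarcinoma. Of these, 4 libraries were labelled control and 4 were labelled ELAPOR1 overexpression. ELAPOR1 encodes a transmembrane protein of endosomes and lysosomes that has been linked to autophagy and apoptosis. Both groups share the same cell line, and the labels name no further genetic change, drug or time point. They do not give the means of overexpression, its promoter or vector, whether the line was cloned, or what the control cells received. They also do not say whether replicates were separate cultures, so p-values measure the spread between these samples only, which may be technical.

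Band 17q21 is a gene-dense part of the long arm of chromosome 17 whose genes mostly do unrelated jobs. It holds the breast cancer susceptibility gene BRCA1 with its neighbour NBR1, the KANSL1 region known for a common inversion and copied gene segments, and the HOXB cluster of developmental transcription factors. Genes that lie side by side share their chromosomal surroundings, while partners of the same protein complex are usually encoded on many chromosomes. The members were sorted into 8 classes by the role of their protein, and partner genes encoded outside the stretch were set beside them.

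Total counts ran from 13765509 to 18128757 per library. ELAPOR1, which the table lists under its earlier symbol KIAA1324, had 1, 1, 4 and 4 counts in control replicates 1 to 4 and 7006, 6422, 5910 and 7368 in the ELAPOR1 replicates, so every library matched its label. All 6 epithelial markers examined were present in every library, from CDH1 (343 CPM, counts per 1000000 after scaling, in control cells) to KRT8 (5355 CPM); CDH1, KRT7 and KRT19 rose, KRT8 and KRT18 fell and EPCAM was not called. Among 14 markers of fibroblasts, leukocytes, endothelial and erythroid cells, 6 had no count in any library, including DCN, LUM, CD3E and CDH5. COL1A1 was at 3.35 CPM in control and 2.93 CPM in ELAPOR1 cells, and CD68, a lysosomal protein that is not limited to leukocytes, was at 84.4 and 75.7 CPM. VWF (1.69 to 0.761 CPM) and HBB (2.14 to 0.408 CPM) were low and fell, as did CD68, and their part in the results was not tested. A lower signal of a gene in such bulk libraries cannot tell fewer cells that express it from less RNA per cell.

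Of the 54 members, 50 had enough counts to be tested. Their median log2 fold change, ELAPOR1 over control, was 0.24, a 1.18-fold difference, against 0.00 over all 13860 genes tested. By edgeR's quasi-likelihood test (Benjamini-Hochberg adjusted p under 0.05 over all tested genes) 30 members were higher and 7 lower, and 13 were not called; over all tested genes 22.6% were called higher and 22.1% lower. The members' values chose them, so nothing is read from that gap. The label "higher together" holds for a majority and not for the whole set. The lower ones were SCRN2, ACBD4, TMEM101, VAT1, HDAC5, NBR1 and GJC1. The calls of GJC1, HDAC5, PLCD3, SNF8 and UBE2Z, those nearest to the threshold, were lost when single libraries were left out. All changes were small: the range ran from -0.55 (SCRN2) to 0.57 (G6PC3), and no member reached a 1.5-fold difference. Members differed from one another more than the error of each: the SD of the 50 log2 fold changes was 0.26, while their median SE was 0.05.

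All 4 ELAPOR1 libraries took part in the shift. The mean log2(CPM + 1) of the 50 tested members was 5.24, 5.25, 5.24 and 5.25 in the control libraries and 5.40, 5.42, 5.41 and 5.42 in the ELAPOR1 libraries. The members gave between 0.315% and 0.322% of all counts in control libraries and between 0.372% and 0.374% in ELAPOR1 libraries. For 28 members every ELAPOR1 library was above every control library, for 5 every one was below, and for 17 the groups overlapped. Over all tested genes 20.0% were wholly above and 19.3% wholly below. The heat map of members by library shows the higher members in all 4 ELAPOR1 columns, interrupted by single low genes.

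**Figure D1:**
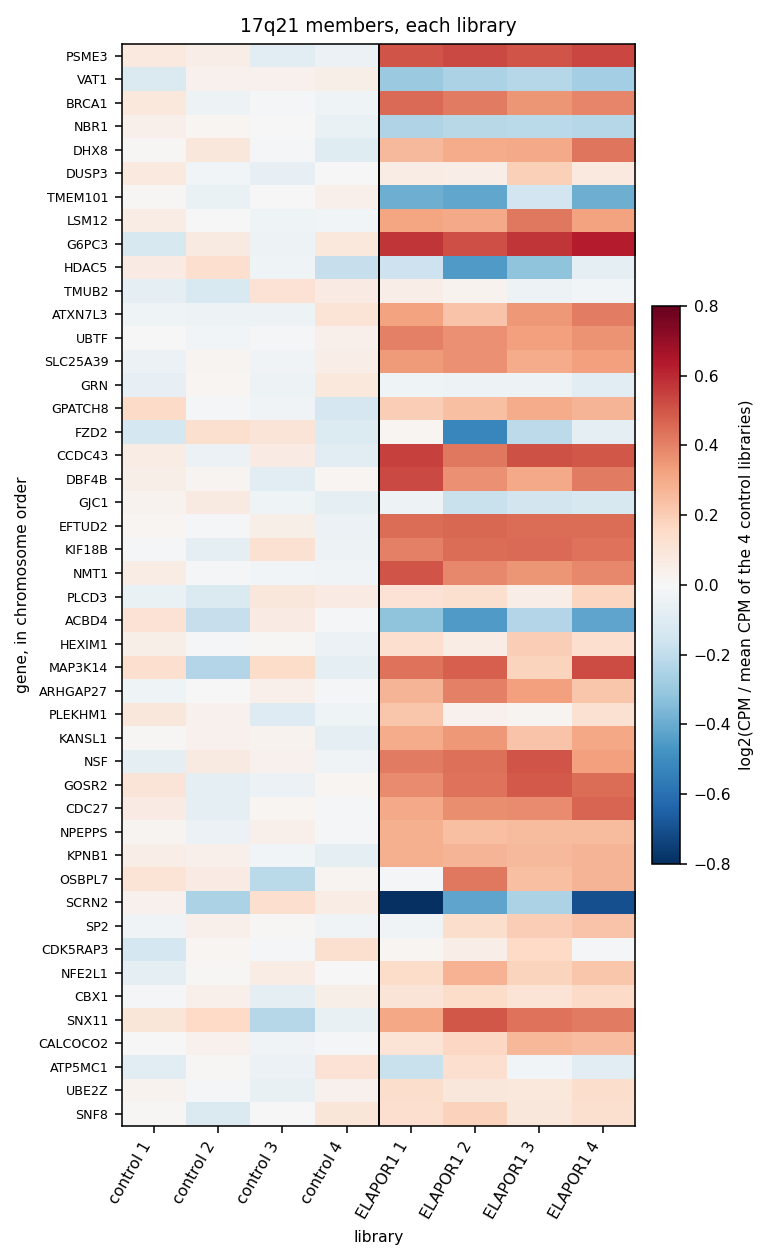
Level of the 46 members averaging 5 CPM or more in each of the 8 libraries, as log2 of CPM over the mean CPM of the 4 control libraries, with genes in chromosome order from PSME3 to SNF8. Red is above and blue below the control mean; members such as G6PC3, PSME3 and EFTUD2 are red in all 4 ELAPOR1 libraries, while SCRN2, TMEM101, NBR1 and VAT1 are blue between neighbours that are red.

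The promoters of the members at both ends of this range are printed here because they share their chromosomal stretch and not their direction. The windows run from 250 bases before to 50 bases after the annotated start, are read 5′ to 3′ on the gene's own strand, and come from RefSeq on GRCh38.p14. Capitals mark matches, on either strand, to those of 8 words searched that were found. These are the E-box CACGTG, which reads the same on both strands, the CCAAT box, named for its letters, and the SP1 GC box GGGCGG. G6PC3, on the + strand at chr17:44070423-44070722, has 3 windows in the table and the first is shown.
G6PC3: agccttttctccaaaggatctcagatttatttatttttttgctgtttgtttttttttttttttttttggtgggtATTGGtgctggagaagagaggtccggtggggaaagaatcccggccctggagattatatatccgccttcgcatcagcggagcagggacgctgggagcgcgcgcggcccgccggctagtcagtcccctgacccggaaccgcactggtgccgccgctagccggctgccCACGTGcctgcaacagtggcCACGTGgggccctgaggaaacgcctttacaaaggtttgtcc
PSME3, on the + strand at chr17:42833147-42833446, has 1 window.
PSME3: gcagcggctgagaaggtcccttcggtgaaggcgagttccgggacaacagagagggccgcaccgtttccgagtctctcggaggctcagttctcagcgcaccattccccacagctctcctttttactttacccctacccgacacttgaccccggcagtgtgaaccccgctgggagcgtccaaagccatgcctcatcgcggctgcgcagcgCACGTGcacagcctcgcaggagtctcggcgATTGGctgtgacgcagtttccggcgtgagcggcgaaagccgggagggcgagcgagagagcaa
SCRN2, on the - strand at chr17:47841224-47841523, has 1 window, in which a GC box and a CCAAT box overlap.
SCRN2: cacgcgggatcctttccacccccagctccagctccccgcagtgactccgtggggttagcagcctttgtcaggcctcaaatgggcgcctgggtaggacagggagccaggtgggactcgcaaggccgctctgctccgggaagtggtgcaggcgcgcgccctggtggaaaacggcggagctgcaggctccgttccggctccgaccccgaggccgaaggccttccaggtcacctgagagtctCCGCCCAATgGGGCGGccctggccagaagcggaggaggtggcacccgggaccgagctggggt
Both windows of higher genes hold a CCAAT box and an E-box, and the window of SCRN2 holds a CCAAT box and a GC box.

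Over the members as a whole the promoter windows were rich in G and C. In the table, 44 members had 65 windows, with a median GC content of 64.7% and a median of 23 CG pairs, against 58.7% and 14 over all 35116 windows of 27305 genes. The GC box GGGCGG was found in 67.7% of member windows and 45.0% of all windows. The E-box CACGTG was found in 16.9% and 7.26%, and the CCAAT box in 38.5% and 34.6%. TATAAA was found in 4.62% of member windows and 11.5% of all windows, and the interferon-response core, GAAA followed by any 2 bases and GAAA, in 1.54% and 3.57%. The ETS word CCGGAAGT (3.08% and 4.14%), the NRF1 word GCATGCGC (3.08% and 3.05%) and the YY1 word AAGATGGC (3.08% and 2.89%) were about as frequent in both. Several windows of one gene can overlap, GC-rich windows hold GC-rich words more often, and a match of letters is not a binding site. The comparison took all windows, including those of genes not tested here, and was not matched for expression. Whether the members differ in this from other expressed genes was not tested. Split by call, GGGCGG was in 29 of 43 windows of higher members, 5 of 5 of lower ones and 7 of 13 of those not called.

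Among genes of protein turnover, PSME3, which encodes the nuclear proteasome activator PA28γ, stood at 161, 158, 143 and 147 CPM in control replicates 1 to 4 and 215, 219, 215 and 220.4 CPM in the ELAPOR1 replicates. Every ELAPOR1 library was above every control library (log2 fold change 0.52, SE 0.035). NPEPPS, the puromycin-sensitive aminopeptidase, was at 200, 191, 203 and 195 CPM in control and 240.5, 232, 235 and 235 CPM in ELAPOR1 libraries, again without overlap (log2 fold change 0.26, SE 0.031); 7 of its 8 deposited values were not whole numbers, so some of its reads were shared with another gene. SCRN2, a secernin, went the opposite way, with 10.4, 8.50, 11.2 and 10.6 CPM in control and 5.65, 7.58, 8.49 and 6.23 CPM in ELAPOR1 libraries. Its highest ELAPOR1 value lay just under its lowest control value (log2 fold change -0.55, SE 0.12), and it was the lowest of all tested members. UBE2Z, an E2 enzyme that takes ubiquitin from UBA6, was higher with log2 fold change 0.11, SE 0.037, and TMUB2 was not called (log2 fold change 0.0043, SE 0.066). Beyond the stretch, PSME2 and PSME4 of the proteasome activators rose and PSME1 was not called; PSME2 had the largest difference (83.5 ± 3.54 to 98.03 ± 6.25 CPM, log2 fold change 0.23). UBA6 rose, and the ubiquitin-like modifier UBD, which UBA6 also activates, fell (4.88 ± 0.460 to 2.37 ± 0.618 CPM, log2 fold change -1.05).

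In metabolism and mitochondria, 2 of 5 members were higher and 2 lower. G6PC3, the broadly expressed catalytic subunit of glucose-6-phosphatase, had the largest fold change of all tested members. It was at 22.2, 25.5, 23.6 and 25.7 CPM in control and 36.1, 34.7, 36.1 and 37.4 CPM in ELAPOR1 libraries, with a wide gap between the groups (log2 fold change 0.57, SE 0.063). SLC25A39, the mitochondrial glutathione carrier, was at 114, 120, 116 and 122 CPM in control and 149.8, 152, 145 and 148 CPM in ELAPOR1 libraries (log2 fold change 0.33, SE 0.035), also without overlap. ACBD4, an acyl-CoA binding protein of peroxisomes, was at 11.5, 9.38, 11.2 and 10.6 CPM in control and 8.53, 7.78, 9.07 and 7.96 CPM in ELAPOR1 libraries, all of them lower (log2 fold change -0.36, SE 0.10). VAT1 was lower too (log2 fold change -0.26, SE 0.038), and ATP5MC1, a gene for the c subunit of ATP synthase, was not called (log2 fold change -0.033, SE 0.07). SLC37A4, the transporter that brings glucose-6-phosphate to this phosphatase and is encoded on chromosome 11, fell (46.9 ± 2.27 to 35.3 ± 2.76 CPM, log2 fold change -0.41), opposite to G6PC3. G6PC1, which lies in the stretch, and G6PC2 had too few counts. Of the other 2 genes for the c subunit, ATP5MC2 fell (153 ± 7.03 to 119 ± 1.63 CPM, log2 fold change -0.36) and ATP5MC3 was not called.

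In cell division and replication 4 of 5 members were higher and 1 was not called, with a median log2 fold change of 0.38. KIF18B, a kinesin of the mitotic spindle, was at 47.5, 45.1, 51.9 and 46.3 CPM in control and 63.2, 64.9, 65.2 and 64.4 CPM in ELAPOR1 libraries. Its groups were well apart (log2 fold change 0.43, SE 0.049). DBF4B, an activating subunit of the replication kinase CDC7, was at 16.9, 16.6, 15.3 and 16.6 CPM in control and 23.6, 21.1, 20.2 and 21.9 CPM in ELAPOR1 libraries, without overlap (log2 fold change 0.41, SE 0.075). CDK5RAP3, an adaptor of the UFM1 ligase, was the lowest of the class, at 44.4, 49.5, 48.5 and 53.5 CPM in control and 49.4, 50.8, 54.6 and 48.7 CPM in ELAPOR1 libraries with groups that overlapped (log2 fold change 0.055, SE 0.055). CDC27, a core subunit of the anaphase-promoting complex, was higher (log2 fold change 0.38, SE 0.041). KPNB1, importin β, which carries proteins into the nucleus, had the highest level per kilobase of exon of all members, at 66.9 CPM per kb, and was higher (log2 fold change 0.27, SE 0.029). Other subunits of the anaphase-promoting complex did not move one way: of 13 tested, 4 rose, 4 fell and 5 were not called, and ANAPC1 had the largest difference (121 ± 9.51 to 156 ± 1.69 CPM, log2 fold change 0.37). Of 9 tested importins and their regulators 3 rose and 6 were not called, led by KPNA2 (359.6 ± 5.25 to 426 ± 7.70 CPM, log2 fold change 0.24), which is also on chromosome 17 but outside the stretch. CDC7 (58.2 ± 1.38 to 64.8 ± 3.60 CPM, log2 fold change 0.15) and KIF18A (73.9 ± 3.78 to 80.6 ± 3.69 CPM, log2 fold change 0.13) rose by less than DBF4B and KIF18B, and DBF4 was not called; the difference between relatives was not tested, and the call of KIF18A was lost when single libraries were left out. Of 6 tested genes of UFMylation, 1 rose, 2 fell and 3 were not called, with UFC1 farthest from 0 (76 ± 1.34 to 64.8 ± 3.62 CPM, log2 fold change -0.23).

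All 3 members of RNA splicing and decay were higher. EFTUD2, the GTPase of the U5 snRNP, was at 101, 99.2, 104 and 97.2 CPM in control and 137, 138, 136 and 136 CPM in ELAPOR1 libraries, which lay within 2 CPM of one another and far above control (log2 fold change 0.45, SE 0.036). LSM12, an Sm-like protein, was at 56.8, 54.5, 53.3 and 53.6 CPM in control and 67.95, 67.3, 73 and 68.1 CPM in ELAPOR1 libraries (log2 fold change 0.34, SE 0.046); all 8 of its deposited values were not whole. DHX8, the helicase that releases spliced mRNA from the spliceosome, was at 38.5, 40.8, 38.2 and 35.9 CPM in control and 45.9, 47.04, 47.3 and 51.7 CPM in ELAPOR1 libraries (log2 fold change 0.32, SE 0.055). None of these 3 overlapped between groups. Among 10 other proteins of the U5 snRNP and the late spliceosome 7 rose and 3 were not called, with a median of 0.12. Of all genes averaging 5 CPM or more, 26.3% were higher. CD2BP2 had the largest difference (148 ± 4.56 to 171 ± 6.12 CPM, log2 fold change 0.21). CD2BP2 lies on the short arm of chromosome 16, and DHX38, which also rose, on its long arm. On these arms 41.6% and 56.8% of genes at that level were higher. Whether this list differs from other genes was not tested.

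Of 11 members acting on chromatin and transcription, 8 were higher, 1 was lower and 2 were not called. BRCA1, which directs repair of broken DNA by homologous recombination, was at 61.1, 56.2, 57.4 and 56.3 CPM in control and 79.2, 76.8, 73.8 and 75.8 CPM in ELAPOR1 libraries. The lowest ELAPOR1 library was above the highest control (log2 fold change 0.40, SE 0.045). UBTF, the factor that opens ribosomal DNA for RNA polymerase I, was at 82.2, 81.1, 81.5 and 84.9 CPM in control and 109, 106, 103 and 106 CPM in ELAPOR1 libraries, without overlap (log2 fold change 0.36, SE 0.038). HDAC5, a class IIa histone deacetylase, was at 15.6, 16.4, 14.6 and 13.1 CPM in control and 13.3, 10.9, 11.9 and 14.1 CPM in ELAPOR1 libraries, with groups that overlapped (log2 fold change -0.24, SE 0.094). ATXN7L3 of the SAGA deubiquitinase module (0.33), KANSL1 of the NSL acetyltransferase complex (0.30), GPATCH8 (0.25), NFE2L1, a transcription factor for proteasome genes (0.21), and CBX1, the heterochromatin protein HP1β (0.13), were higher by the log2 fold changes in parentheses, and SP2 was not called (0.14).

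Several of these proteins have partners encoded elsewhere. Of 11 genes for BRCA1 partners 5 rose (BARD1, PALB2, BRCA2, RBBP8 and BRCC3), ABRAXAS1 fell and 5 were not called. PALB2 had the largest difference (19.8 ± 1.48 to 30.96 ± 1.15 CPM, log2 fold change 0.64); it lies on the short arm of chromosome 16, where 293 genes averaging 5 CPM or more had a median of 0.09 and 41.6% of them were higher. Of 8 genes for initiation by RNA polymerase I 4 rose, 1 fell and 3 were not called, led by RRN3 (45.2 ± 1.29 to 70.5 ± 2.19 CPM, log2 fold change 0.64), also on that arm. Both PALB2 (edgeR adjusted p = 1.32e-09) and RRN3 (edgeR adjusted p = 2.06e-13) were higher in 4 of 4 ELAPOR1 libraries. Of 4 partners of ATXN7L3, USP22 rose and ENY2 fell (78.1 ± 5.37 to 69.5 ± 1.57 CPM, log2 fold change -0.17). Of 8 partners of KANSL1 2 rose and 6 were not called, led by HCFC1 (178 ± 3.42 to 220.2 ± 5.74 CPM, log2 fold change 0.31). HDAC4 rose (15.6 ± 1.47 to 19.1 ± 1.96 CPM, log2 fold change 0.30), HDAC7 fell and HDAC9 was not called. Of 5 genes of the 7SK particle and its kinase P-TEFb 2 rose, led by CCNT2 (48.9 ± 4.22 to 61.5 ± 1.24 CPM, log2 fold change 0.33). Of 6 partners or relatives of NFE2L1 1 rose and 3 fell, the last being the 3 small MAF proteins, with MAFK (90 ± 6.46 to 71.3 ± 3.76 CPM, log2 fold change -0.34) farthest from 0. In the SP family SP3 rose (143 ± 10.3 to 173 ± 4.54 CPM, log2 fold change 0.27) while SP1 and SP4 fell, and both other HP1 genes were not called.

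The paralogs HEXIM1 and HEXIM2 lie next to one another on the + strand and encode inhibitors of P-TEFb. HEXIM1 was at 90.6, 86.6, 88.3 and 84.99 CPM in control and 96.4, 91.3, 100.3 and 96.2 CPM in ELAPOR1 libraries, slightly higher and without overlap (log2 fold change 0.13, SE 0.04). HEXIM2 was at 2.05, 2.83, 3.06 and 3.11 CPM in control and 2.09, 3.93, 2.45 and 2.54 CPM in ELAPOR1 libraries, with overlap and a large error (log2 fold change -0.0069, SE 0.21); its interval of 1 SE on either side includes the value of HEXIM1, so a difference between them is not shown.

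In autophagy, lysosomes and vesicle traffic 5 of 9 tested members were higher and 1 was lower. GOSR2, a SNARE protein of the Golgi, was at 34.6, 30.4, 31.1 and 32.5 CPM in control and 41.8, 43.5, 45.3 and 43.8 CPM in ELAPOR1 libraries (log2 fold change 0.44, SE 0.057). NSF, the ATPase that takes used SNARE complexes apart, was at 27.6, 30.7, 29.9 and 28.6 CPM in control and 38.98, 39.6, 41.4 and 36.7 CPM in ELAPOR1 libraries (log2 fold change 0.42, SE 0.059). Neither overlapped between groups, and the 8 deposited values of each were not whole numbers. NBR1, a receptor that brings ubiquitin-marked cargo to autophagosomes, was at 184, 181, 179 and 172 CPM in control and 151, 153, 154 and 153 CPM in ELAPOR1 libraries, all lower (log2 fold change -0.23, SE 0.033). SNX11, a sorting nexin (0.41), CALCOCO2, also known as the autophagy receptor NDP52 (0.20), and SNF8 of the ESCRT-II complex (0.13) were higher by the log2 fold changes in parentheses. OSBPL7 (0.23), PLEKHM1 (0.10) and GRN, which encodes progranulin (-0.052), were not called. The 2 autophagy receptors of the stretch thus differed in direction. Of the 4 receptors encoded elsewhere, SQSTM1 (509 ± 15.9 to 426 ± 11.8 CPM, log2 fold change -0.26) and OPTN fell, and TAX1BP1 and TOLLIP were not called. Of 8 genes for Golgi SNAREs and NSF cofactors 3 rose and 2 fell, with STX5 farthest from 0 (45.5 ± 2.24 to 35.1 ± 0.757 CPM, log2 fold change -0.37). Among partners of progranulin PSAP (672 ± 7.76 to 547 ± 12.8 CPM, log2 fold change -0.30) and CTSD fell, and SORT1 was not called. In ESCRT-II VPS25, whose gene lies shortly before the stretch, rose (38.2 ± 2.33 to 42.8 ± 3.43 CPM, log2 fold change 0.16), a call that was lost when single libraries were left out. Of 8 subunits of the COPI coat 3 fell and 5 were not called, led by COPG2 (31.2 ± 1.94 to 25.7 ± 3.23 CPM, log2 fold change -0.29).

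In signalling, adhesion and the cytoskeleton 4 of 9 tested members were higher and 1 was lower. FMNL1, a formin, had the largest fold change but few counts, at 1.497, 1.77, 1.08 and 1.65 CPM in control and 2.39, 2.06, 2.23 and 1.67 CPM in ELAPOR1 libraries, which overlapped (log2 fold change 0.47, SE 0.25), and it was not called. MAP3K14, the kinase NIK that starts non-canonical NF-κB signalling, was at 22.8, 17.7, 23.1 and 19.8 CPM in control and 28.1, 29.01, 23.5 and 29.9 CPM in ELAPOR1 libraries, higher and just without overlap (log2 fold change 0.41, SE 0.083). FZD2, a Wnt receptor, was at 11.2, 13.4, 13.2 and 11.4 CPM in control and 12.5, 8.58, 10.7 and 11.7 CPM in ELAPOR1 libraries, with overlap and no call (log2 fold change -0.18, SE 0.10). NMT1, which attaches myristate to proteins (0.41), ARHGAP27, a GTPase-activating protein (0.31), and PLCD3, a phospholipase C (0.12), were higher by the log2 fold changes in parentheses. The connexin gene GJC1 was lower (-0.12), and the phosphatase DUSP3 (0.10) and SKAP1 (0.14) were not called. Of 7 other genes of non-canonical NF-κB signalling 3 rose and 1 fell, with RELB farthest from 0 (28.97 ± 1.71 to 34.9 ± 0.915 CPM, log2 fold change 0.27). NMT2, the second myristoyltransferase gene, was not called. The 4 genes around the kinase TBK1 (-0.11 to 0.23) and ITGAV, the partner of ITGB3 (0.14), were not called.

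Among the little-studied members CCDC43 was at 19.4, 18, 19.4 and 17.5 CPM in control and 27.1, 24.9, 26.4 and 26.2 CPM in ELAPOR1 libraries, all higher (log2 fold change 0.49, SE 0.069). TMEM101, a membrane protein, was at 22.8, 21.8, 22.6 and 23.4 CPM in control and 17.3, 17.03, 20.4 and 17.3 CPM in ELAPOR1 libraries, all lower (log2 fold change -0.34, SE 0.074). FAM171A2 was barely detected, at 0.333, 0.767, 0.240 and 0.793 CPM in control and 0.430, 0.865, 0.360 and 0.981 CPM in ELAPOR1 libraries, and its error was larger than its change (log2 fold change 0.33, SE 0.44). The plot of fold changes by role shows higher and lower members in every class except splicing and cell division, where none was called lower.

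**Figure D2:**
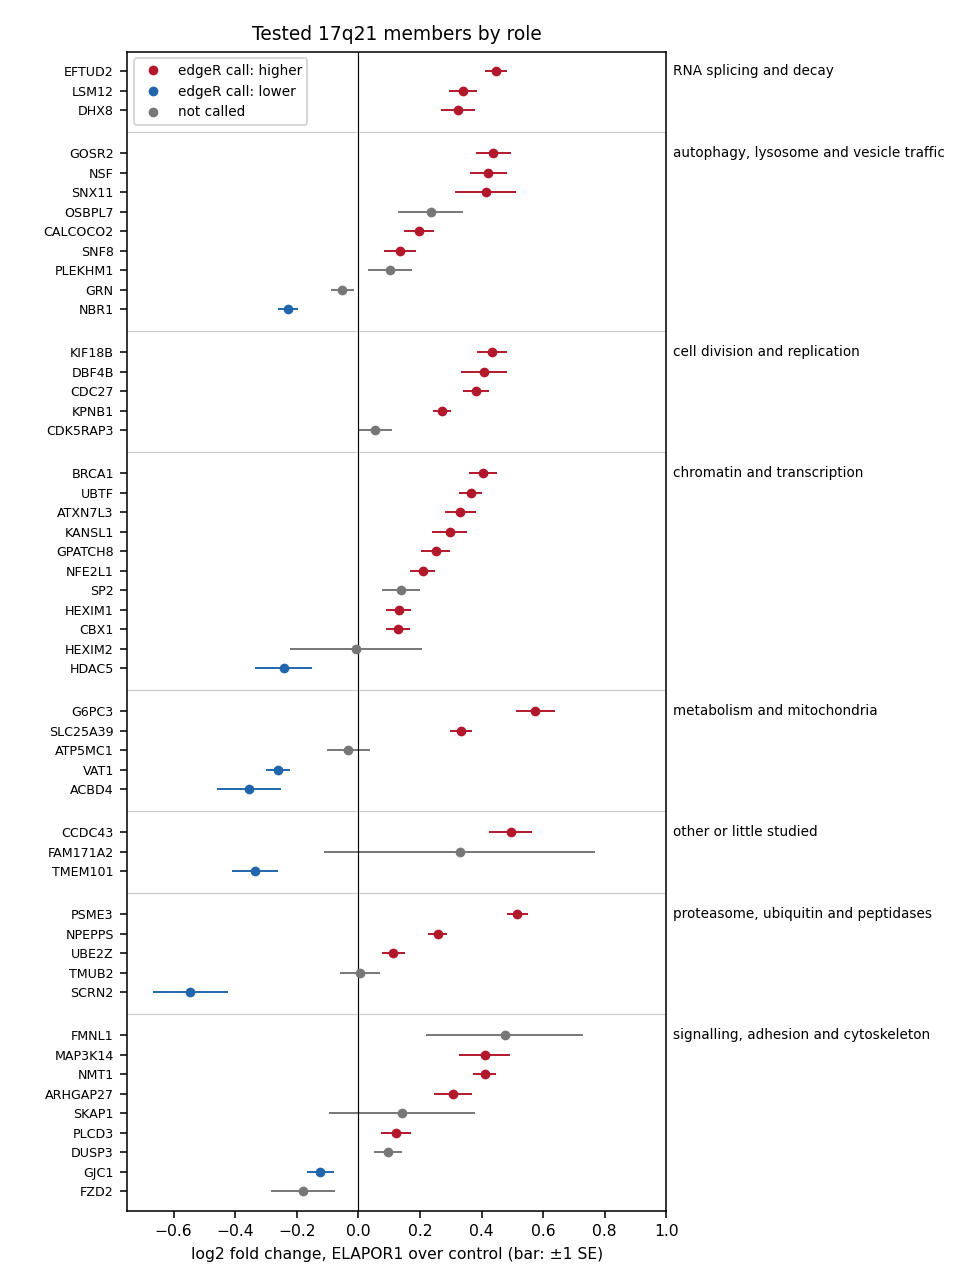
Log2 fold change, ELAPOR1 over control, of the 50 tested members, grouped by role; points are estimates from edgeR and bars are 1 SE on either side. Red marks members called higher (30), blue lower (7) and grey not called (13); the values run from -0.55 for SCRN2 to 0.57 for G6PC3.

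The 4 members with too few counts were RND2, ITGB3, TBKBP1 and COPZ2. RND2, a small GTPase, had 2 counts over the 4 control libraries and 9 over the 4 ELAPOR1 libraries. ITGB3, the integrin β3 subunit, had at most 6 counts in a library, and TBKBP1, an adaptor of TBK1, at most 4. COPZ2, a subunit of the COPI coat, had no count in control libraries and 2 in each of ELAPOR1 replicates 3 and 4. No fold change is given for them. A further 4 tested members, FAM171A2, FMNL1, HEXIM2 and SKAP1, had a mean under 5 CPM, and none of those 4 was called.

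Some close neighbours moved in opposite directions and some in the same direction. The outer start of BRCA1 and the start of NBR1 lie 236 bases apart on opposite strands in GENCODE 29, with BRCA1 higher (0.40) and NBR1 lower (-0.23). That outer start belongs to 1 of the 33 annotated BRCA1 transcripts; 24 start within 300 bases of position 43125329, where the gene faces NBR2 instead. That window, chosen for printing after the values were seen, lies on the - strand at chr17:43125315-43125614 (RefSeq, GRCh38.p14) and shares 292 bases with the window of NBR2. Its only match to the 8 words searched is 1 CCAAT box, in capitals.
BRCA1: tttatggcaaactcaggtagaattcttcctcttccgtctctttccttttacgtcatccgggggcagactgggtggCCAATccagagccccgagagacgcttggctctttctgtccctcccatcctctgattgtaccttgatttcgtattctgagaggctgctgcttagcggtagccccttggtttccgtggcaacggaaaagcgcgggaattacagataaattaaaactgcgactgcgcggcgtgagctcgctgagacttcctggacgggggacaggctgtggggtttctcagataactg
VAT1, which was lower (-0.26), starts 118 bases from RND2, which had almost no counts. TMUB2, which was not called, starts 253 bases from its antisense neighbour ASB16-AS1, which rose (3.13 ± 0.402 to 4.58 ± 0.763 CPM, log2 fold change 0.54). EFTUD2 (0.45) starts 50 bases from FAM187A, and both were higher. FAM187A was near the floor (0.629 ± 0.571 to 1.60 ± 0.211 CPM, log2 fold change 1.31, SE 0.49). PSME3 (0.52) and BECN1 (0.31), which share 300 exon bases on opposite strands, were also both higher. PLCD3 shares 124 exon bases with ACBD4 and 50 with NMT1 on the opposite strand, and of these PLCD3 and NMT1 were higher and ACBD4 was lower. In all 26 members shared exon bases with another annotated gene, most often an antisense gene, and the use of strand in counting was not given in the sources used here, so reads there could have been assigned to either.

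The stretch from the start of PSME3 to the end of SNF8 runs from position 42824385 to 48945117, spans 6.12 Mb and holds 305 annotated genes, 251 of them not members. Of these 251, 47 were tested, and their median log2 fold change was 0.10; 16 were higher and 2 lower. That median was 0.07 without ELAPOR1 replicate 3 and 0.23 without ELAPOR1 replicate 1. Most of the 47 had few counts, and the 21 averaging 5 CPM or more had a median of 0.26, close to the members' 0.24, with 10 higher and 2 lower. Those were 47.6% and 9.52%, against 26.3% and 25.1% of all genes at that level. The stretch itself was chosen on this contrast, so the gap is no test of these genes either. Among the highest were LRRC37A4P (8.12 ± 1.57 to 12.9 ± 1.49 CPM, log2 fold change 0.66), a transcribed pseudogene of a copied family whose 8 values were not whole and so is uncertain, RUNDC1 (9.28 ± 0.519 to 13.4 ± 0.787 CPM, log2 fold change 0.53) and C17orf53 (8.82 ± 0.714 to 11.7 ± 0.925 CPM, log2 fold change 0.40). Lowest were the ligand gene WNT3 (27.2 ± 2.92 to 19.8 ± 1.21 CPM, log2 fold change -0.46) and the ribosomal protein gene RPL27 (382 ± 22.4 to 319.5 ± 4.02 CPM, log2 fold change -0.26), both lower, and AC060780.1 (9.75 ± 0.590 to 8.39 ± 1.001 CPM, log2 fold change -0.22) and DCAKD (11.6 ± 1.55 to 10.7 ± 0.382 CPM, log2 fold change -0.12), neither called. In the stretch 14 genes had a symbol that begins with HOXB, a count that takes in antisense genes of that name. Of these, 5 were tested, all with a positive fold change and a median of 0.31, and 2 were called higher. Over all tested genes 50.1% had a positive fold change and 22.6% were called higher.

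The shift did not stop at the borders of the stretch. Just inside its first end lay PSME3 (0.52), AARSD1 (0.35) and RUNDC1 (0.53); just outside lay BECN1, a core autophagy gene that overlaps PSME3 (44.5 ± 2.42 to 55.2 ± 1.61 CPM, log2 fold change 0.31), COA3 (19.3 ± 3.25 to 21.6 ± 1.71 CPM, log2 fold change 0.16) and WNK4 (9.04 ± 1.004 to 5.52 ± 0.182 CPM, log2 fold change -0.71). Just inside its far end lay ATP5MC1 (-0.033), UBE2Z (0.11) and SNF8 (0.13). Just outside lay ZNF652 (22.2 ± 0.849 to 20.2 ± 1.64 CPM, log2 fold change -0.13), PHB, which encodes prohibitin (117 ± 4.78 to 178 ± 5.92 CPM, log2 fold change 0.61), and SPOP, a ubiquitin ligase adaptor (38.2 ± 1.44 to 47.01 ± 1.65 CPM, log2 fold change 0.30). PHB and BECN1 were higher in all 4 ELAPOR1 libraries, and WNK4 was lower in all 4. Over 6 Mb on both sides, the 108 genes averaging 5 CPM or more had a median of 0.14, and 50 were higher and 20 lower. Those were 46.3% and 18.5%, against 26.3% and 25.1% of all genes at that level. The median was 0.12 over 80 genes on the side of the short arm and 0.18 over 28 genes on the side of the long arm's end.

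Along chromosome 17 in bins of 3 Mb, medians lay between 0.12 and 0.27 in all 8 bins from 27.8 to 51.8 Mb (15 to 49 genes each), and the highest were the 2 bins from 42.8 to 48.8 Mb. These wider borders were read from the values. Without the stretch itself, the 173 genes of this span averaging 5 CPM or more had a median of 0.16, and 47.4% were higher and 14.5% lower. The 166 genes before it had a median of 0.01, with 22.9% higher, and the 214 genes after it a median of 0.01, with 23.4% higher. All genes at that level gave 26.3% higher and 25.1% lower. The bin from 6.8 to 9.8 Mb on the short arm stood out in the other direction, with a median of -0.16 over 49 genes. The members thus lie toward the far end of a broader span in which many genes were slightly higher, and whether they stand apart from the rest of it was not tested. Other spans of the genome also had raised medians: 236 genes of the long arm of chromosome 16 had a median of 0.18.

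**Figure D3:**
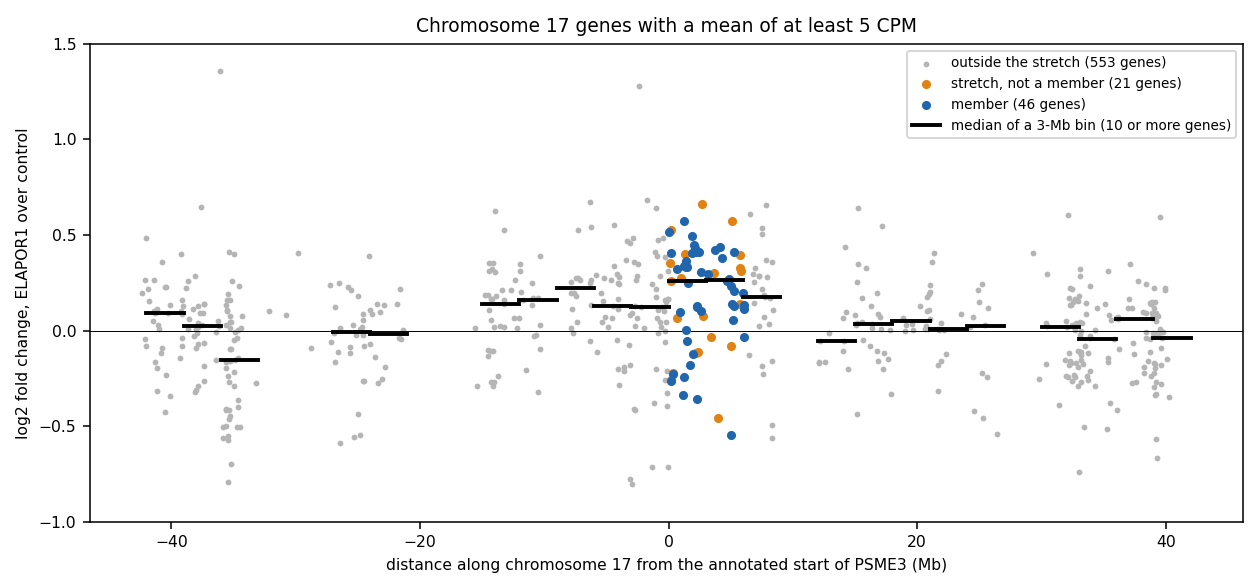
Log2 fold change, ELAPOR1 over control, of chromosome 17 genes averaging 5 CPM or more against their distance from the start of PSME3, for 46 members (blue), 21 other genes of the stretch (orange) and 553 genes outside it (grey). Black bars are medians of 3-Mb bins with at least 10 genes; they are above 0.1 in the 8 bins around the members and mostly near 0 elsewhere.

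Within the members, the size of the change was at most weakly related to the properties examined. Across the 50 tested members, which share the same libraries, the log2 fold change had Pearson's r of 0.11 (Spearman's coefficient 0.08) with log2 mean CPM and r of -0.03 (Spearman's -0.05) with position. It had r of 0.33 (Spearman's 0.26) with log2 exon length and r of -0.28 (Spearman's -0.26) with GC content. Genes are not independent replicates, and these values are a description. Members had a median GC content of 53.0% and exon length of 5527 bases, against 48.1% and 4777.5 bases over all tested genes. Split by position, the 18 members nearest the first end had a median of 0.32 over 17 tested, the middle 18 one of 0.36, and the 18 nearest the far end one of 0.14 over 15 tested.

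Taking all 28 partner lists as one, 137 of 140 genes encoded outside the stretch were tested. Their median log2 fold change was 0.02, and by edgeR's test 44 rose (32.1%), 28 fell (20.4%) and 65 were not called. Over all tested genes 22.6% were higher and 22.1% lower, and over genes averaging 5 CPM or more 26.3% and 25.1%. In 39 partners every ELAPOR1 library was above every control library and in 28 below. Over all tested genes 20.0% were wholly above and 19.3% wholly below. The members themselves had a median of 0.24 with 60% higher, but they were chosen for it and partners were not, so the gap is no test. In the plot of members beside their partners, the member lies to the right of all its tested partners for PSME3, EFTUD2, DHX8, G6PC3, ATXN7L3, DBF4B, KIF18B, NMT1, MAP3K14, NSF, GOSR2, CDC27, KPNB1, CALCOCO2, GRN, NFE2L1 and CBX1. For BRCA1 and UBTF at least 1 partner had a larger fold change than the member. How often this would happen by chance was not tested.

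**Figure D4:**
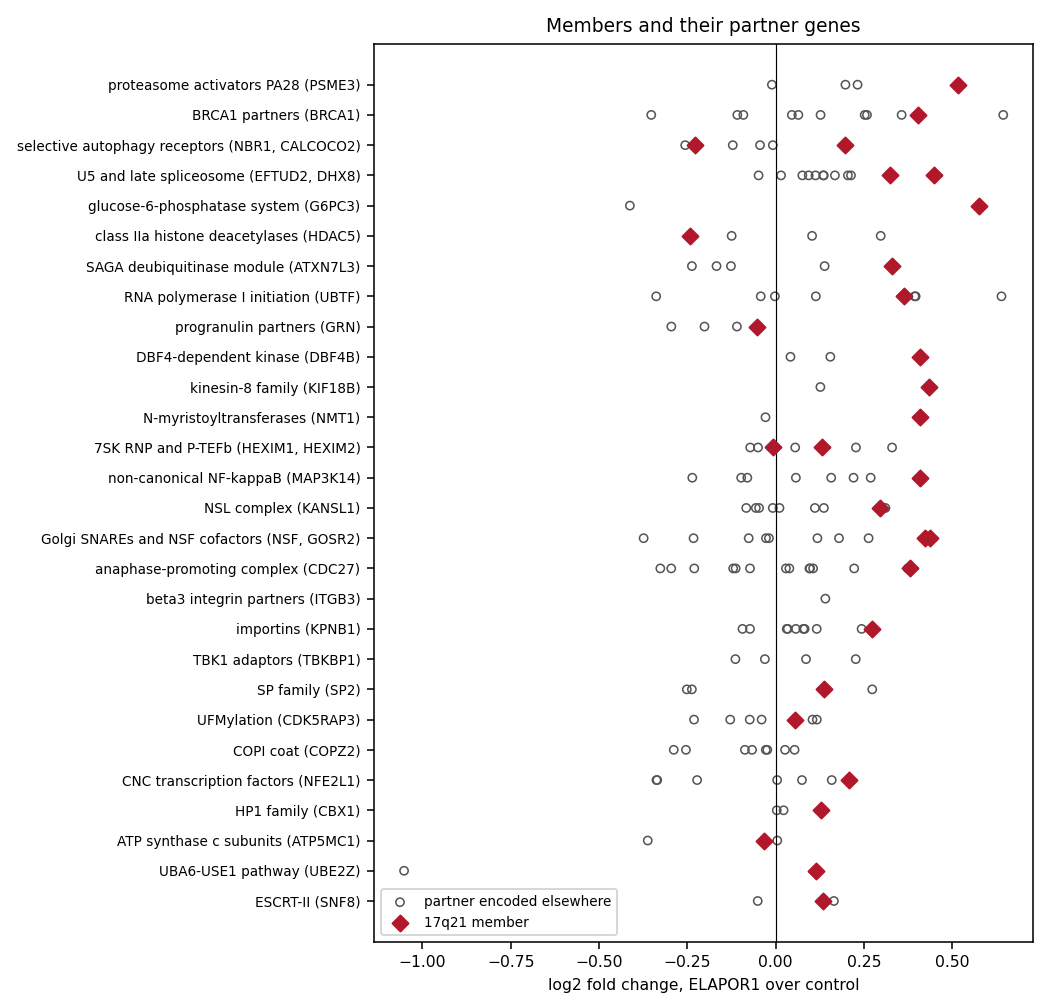
Log2 fold change, ELAPOR1 over control, of tested partner genes encoded outside the stretch (open circles) and of the tested members they go with (red diamonds), 1 list per line. Partners lie on both sides of 0 in most lists, with a median of 0.02 over 137 genes, and UBD has the lowest value (-1.05).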

How the data were processed

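Messenger RNA profiles were compared between 4 control and 4 ELAPOR1 libraries of Panc 10.05. The authors deposited 1 table of expected counts (estimated counts that need not be whole) per gene and library; per the submitters' processing notes cutadapt, STAR, RSEM and DESeq2 were used with hg38, but versions, annotation release and strand setting are not given in the sources used here. Of the nonzero values 15.0% were not whole. The 54 members, their role classes, the 28 partner lists and the motif words were chosen with earlier results of these data known. All members were matched by symbol except OSBPL7, matched by Ensembl identifier. Of 58870 identifiers 58552 were found in GENCODE 29 (GRCh38), the source of gene positions; promoters are from RefSeq.

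Expected counts were rounded and fitted for all genes with edgeR 4.0.16 in R 4.3.3 (filterByExpr, TMM scaling, robust quasi-likelihood test, Benjamini-Hochberg adjustment, threshold 0.05), which kept 13860 genes; CPM are counts per 1000000 after TMM scaling. The test was checked on simulated data. Named genes followed a rule: in each role class the members with the 2 largest and the smallest fold changes are given by library, beside the extreme other genes of the stretch with a mean of at least 5 CPM, the nearest genes at each end, and in each partner list the called gene farthest from 0. ATXN7 had more than 1 table entry and was left out, and some other named-gene results are not reported here. Same-numbered libraries of the 2 groups did not deviate together, so no block was used. Alternatives used DESeq2 1.42.0, limma 3.58.1, other scalings and filters, a stricter threshold, GC and length trends, a replicate block, and each library left out. Total counts of 13765509 to 18128757 per library set the precision of each value.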

Additional observations from a re-analysis of the deposited data

Results flagged for a closer look

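In 192 groups of 4 library values, 1 value stood far from the other 3 in 13, where chance gives about 1 in 20 (9.6). Among members, VAT1 was at 130.2 CPM in control replicate 1 against 144.6 to 145.8 in the other controls, and ATXN7L3 at 52.37 CPM in control replicate 4 against 47.05 to 47.45. TMEM101 was at 20.37 CPM in ELAPOR1 replicate 3 against 17.03 to 17.31 in the other ELAPOR1 libraries, and LSM12 at 73.0 CPM there against 67.27 to 68.12. GRN was at 125.2 CPM in ELAPOR1 replicate 4 against 129.5 to 130.2, and EFTUD2 at 138.1 CPM in ELAPOR1 replicate 2 against 136.5 to 136.6. Among other genes of the stretch, DCAKD was at 9.314 CPM in control replicate 1 against 12.23 to 12.51, C17orf53 at 13.03 CPM in ELAPOR1 replicate 3 against 11.11 to 11.36, and AARSD1 at 16.90 CPM in ELAPOR1 replicate 4 against 19.27 to 19.36. In ELAPOR1 replicate 2, WNK4 was at 5.788 CPM against 5.399 to 5.463 and BECN1 at 52.83 CPM against 55.92 to 56.24. HDAC4 was at 17.74 CPM in control replicate 1 against 14.69 to 15.1, and at 16.2 CPM in ELAPOR1 replicate 3 against 19.79 to 20.5.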

How the results depend on the processing

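Across 20 alternative analyses no named gene that had been called changed the sign of its fold change, while the uncalled members ATP5MC1, GRN, HEXIM2, SKAP1 and TMUB2 did in at least 1, and 32 of the 37 member calls were kept in each of them. The members' median log2 fold change of 0.24 was 0.26 with total count scaling, 0.23 with at least 10 counts in every library, 0.21 with GC and length trends removed, with or without the block, and 0.20 to 0.26 with 1 library left out. The median of other tested genes of the stretch, 0.10, was 0.12 with total count scaling, 0.14 with limma-voom, 0.26 with at least 10 counts (35 genes), 0.13 with GC and length trends removed and the block, and 0.068 to 0.23 with 1 library left out. That of the flanks, 0.14, was 0.16 with total count scaling and 0.12 to 0.15 with 1 library left out. The causes were not tested. Same-numbered libraries correlated by -0.121, 0.027, 0.031 and -0.107, so the numbers were not read as a pairing; with the replicate block 28 members were higher and 7 lower. The adjusted p of each call lost somewhere reached 0.092 for GJC1 (lost without control replicate 2 or ELAPOR1 replicate 2 or 3), 0.14 for HDAC5 (control 1 or 2, ELAPOR1 2 or 3), 0.19 for PLCD3 (control 1 or 2, ELAPOR1 1, 2 or 4), 0.17 for SNF8 (control 1, 2 or 3, ELAPOR1 1, 2 or 4) and 0.061 for UBE2Z (control 3). Among partners it reached 0.11 for KIF18A (control 2, 3 or 4, ELAPOR1 1 or 4) and 0.14 for VPS25 (control 1, 2 or 3, ELAPOR1 1 or 2). DUSP3, OSBPL7 and SP2 gained a call in some alternatives. Members under 5 CPM had errors too large to show changes of this size.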
